A study of Mus musculus with 6 samples.

Results

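Smad7, Smad6, Pmepa1, Smurf1 and Smurf2 are genes whose products restrain TGF-beta family signaling, and the binding of phosphorylated Smad2 (pSmad2) at these 5 of 22350 protein-coding genes is described here in mouse embryonic stem cells. The genes were chosen by name, with earlier results of these data known. Each was taken with 20 kb on either side of its annotated bounds (mm9 assembly). The windows ran around Smad7 (chr18:75527183-75555589, plus strand), Smad6 (chr9:63800953-63869866, minus strand), Pmepa1 (chr2:173049959-173102034, minus strand), Smurf1 (chr5:145637364-145726716, minus strand) and Smurf2 (chr11:106681380-106782029, minus strand). In 9685 stretches of the genome ChIP tags were above input tags (called sites below), and 9 of these lay in the 5 windows.

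The cells were of the line E14 TG2A, first held for 6 h in 10 µM of SB-431542 (SB), an inhibitor of the type I receptor kinases of Activin, Nodal and TGF-beta. For the next 18 h they received 25 ng/ml Activin, the solvent DMSO at 1 in 5000, or again 10 µM SB, in a medium with serum replacement and without LIF. DMSO leaves the signal that the cells make themselves, so the series is high, endogenous and low signaling, and all 3 groups share the pretreatment. Each treatment has 1 ChIP library, made with an antibody to Smad2 phosphorylated at its C-terminal serines, and 1 library of input DNA that did not pass the antibody. Transcripts are not in these files, so neither the cell type nor the expression of the 5 genes was checked here.

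In this pathway a ligand brings receptor kinases together, the type I receptor phosphorylates Smad2 and Smad3, and these enter the nucleus with Smad4 and bind DNA, where the letters CAGA are their basic recognition sequence. Smad7 and Smad6 are the inhibitory Smads, which lack the phosphorylation site and compete at the receptors, Smad7 for all branches and Smad6 mainly for the BMP branch. Pmepa1 is a membrane protein that holds receptor-regulated Smads away from the receptor, and Smurf1 and Smurf2 are ubiquitin ligases that are brought to the receptors by Smad7 and mark them for degradation. Several of these genes are known targets of the pathway, which closes a negative feedback loop.

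The ChIP libraries held 10537724 (Activin), 9713869 (DMSO) and 7805150 (SB) tags after copies at the same position and strand were kept once, and the inputs 10895120, 11913742 and 9786787. Copies made up 19.9% to 24.6% of the ChIP tags and 5.64% to 6.94% of the input tags. Values are tags, or RPM, the tags divided by the kept tags of the library and multiplied by 1000000. With a single library per treatment every test and interval below covers counting error only, and the difference between treatments cannot be told apart from that between cultures or libraries. The ChIP libraries differed in their content of GC-rich DNA. In 500 bp windows outside sites the Activin to SB ratio fell with GC content, from 1.18 at 30% to 32.5% GC to 0.454 at 67.5% to 70% GC, and values scaled for this are given where they change a result.

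Sites were called promoter sites when they lay within 1 kb of an annotated transcript start of the gene and distal sites otherwise. Smad7 had 1 distal site, at -6.47 kb from the start, and 2 promoter sites, 1 around the start and a weak one 8.17 kb inside the gene, counted as promoter through an internal transcript start 785 bp away. Smad6 had 2 promoter sites, at the start and 4.07 kb inside, the latter again by an internal start. Pmepa1 had a distal site in an intron, 37.9 kb inside the gene, and a promoter site 975 bp inside. The nearest annotated transcript start of Pmepa1 lay 3941 bp from the distal site. Smurf2 had a promoter site 931 bp inside and a distal site in the 3′ end of the gene. No site was found in the 129 kb around Smurf1. The sites are numbered for each gene from the highest by tags per bp.

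Sequences around the highest coverage are shown for Pmepa1 and Smad6 sites. Pmepa1 site 2 and Smad6 site 1 hold the most CAGA letters among the 9 sites, and Pmepa1 site 1 differed between treatments. Smad7 site 1, which also differed between treatments and holds 7 CAGA, is not shown. The sequences are read 5′ to 3′ along the minus strand, the strand of both genes, from the NCBIM37 (mm9) sequence. Capitals mark CAGA and its reverse complement TCTG. They stand for Pmepa1 site 1, the intronic distal site (chr2:173064014-173064313), Pmepa1 site 2, the promoter site (chr2:173100909-173101208), and Smad6 site 1, the site inside the gene (chr9:63865645-63865944).
Pmepa1 site 1: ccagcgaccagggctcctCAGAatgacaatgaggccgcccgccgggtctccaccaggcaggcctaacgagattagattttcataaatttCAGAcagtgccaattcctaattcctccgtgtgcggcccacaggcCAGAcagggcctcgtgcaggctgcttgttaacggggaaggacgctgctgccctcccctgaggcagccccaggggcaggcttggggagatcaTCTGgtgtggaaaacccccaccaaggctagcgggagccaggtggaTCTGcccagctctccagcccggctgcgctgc
Pmepa1 site 2: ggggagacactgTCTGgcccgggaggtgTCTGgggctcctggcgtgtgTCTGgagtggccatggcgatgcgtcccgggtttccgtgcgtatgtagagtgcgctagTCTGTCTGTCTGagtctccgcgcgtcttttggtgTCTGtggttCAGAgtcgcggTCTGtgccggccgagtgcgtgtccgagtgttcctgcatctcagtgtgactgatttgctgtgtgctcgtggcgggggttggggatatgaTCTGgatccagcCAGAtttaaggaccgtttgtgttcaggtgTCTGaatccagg
Smad6 site 1: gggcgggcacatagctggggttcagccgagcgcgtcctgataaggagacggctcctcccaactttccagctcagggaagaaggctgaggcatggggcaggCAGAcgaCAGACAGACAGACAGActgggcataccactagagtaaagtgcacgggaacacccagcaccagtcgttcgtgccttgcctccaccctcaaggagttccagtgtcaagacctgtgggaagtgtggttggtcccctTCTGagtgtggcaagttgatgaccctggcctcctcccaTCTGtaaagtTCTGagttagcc

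Within such 300 bp windows CAGA was counted on both strands, together with CAGAC, which contains it. Pmepa1 site 2 had 12 CAGA and 9 CAGAC, and only 0.599% and 0.382% of all sites had as many. Smad6 site 1 had 8 and 5, reached by 6.97% and 1.31% of sites. The 2 distal sites that followed the signal, described next, had fewer, 7 and 3 at Smad7 site 1 and 5 and 2 at Pmepa1 site 1. Smad7 site 2, at the start, had 1 CAGA and 0 CAGAC. Over all sites 97.6% held at least 1 CAGA and 58.7% at least 1 CAGAC in a window of this length. The letters AATCCACA, a sequence bound by the Smad partner Foxh1 and added to the search after the values were seen, were in none of the 9 windows, in 2.68% of all sites and in 31.6% of the 212 sites higher in Activin than in SB. The number of CAGA letters thus did not order the 9 sites by their response.

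The distal Smad7 site followed the signal. Smad7 site 1 (chr18:75520401-75521000, outside protein-coding genes) gave 89 ChIP tags under Activin, 65 under DMSO and 9 under SB, while the 3 inputs gave 2, 7 and 5. These ChIP levels are 8.45, 6.69 and 1.15 RPM. Activin and DMSO were both high and SB lay near its input, with 2.26 times the input level and an interval from 0.679 to 8.57. The site was 7.32-fold higher in Activin than in SB (95% interval 3.69 to 16.5, adjusted p = 1.20e-10, exact binomial test adjusted over all sites) and SB was 0.172 of DMSO (0.0754 to 0.348, adjusted p = 1.45e-06, exact binomial test). Activin was 1.26-fold above DMSO, a step that counting error covers (0.906 to 1.77, adjusted p = 0.747, exact binomial test).

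The intronic Pmepa1 site behaved in the same order. Pmepa1 site 1 (chr2:173064001-173064400) gave 39 tags with Activin, 29 with DMSO and 3 with SB, where the inputs gave 2, 6 and 7, or 3.70, 2.99 and 0.384 RPM of ChIP. In SB the ChIP level was 0.537 of its input (0.0897 to 2.35), so no pSmad2 signal was detectable there at this depth. Activin exceeded SB 9.63-fold (3.06 to 48.7, adjusted p = 7.73e-05, exact binomial test), and SB was 0.129 of DMSO (0.0251 to 0.415, adjusted p = 0.00328, exact binomial test). The step from DMSO to Activin was 1.24-fold (0.747 to 2.08). In the wider regions of the peak lists both differences stayed called but were smaller, with log2 ratios of 2.10 against 3.27 here (Activin to SB) and -1.85 against -2.96 (SB to DMSO).

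These were the only calls among the 9 sites. Between Activin and SB, 2 of 9 were higher in Activin, where 2.19% of all sites were, and 0 were lower, where 3.93% were. Between SB and DMSO, 2 were lower in SB, against 0.878% of all sites, and 0 were higher, against 0.712%. Scaled for GC content the balance over all sites turned in Activin against SB, from 212 higher and 381 lower to 235 higher and 121 lower. In SB against DMSO it moved further to the lower side, from 69 higher and 85 lower to 11 higher and 90 lower. The same 2 member sites were called then, joined by Smad7 site 2 in Activin against SB. No member site was called between Activin and DMSO, where 0.145% of all sites were higher and 0.372% lower, and 1 site, Pmepa1 site 2, had an unadjusted p under 0.05. The inputs did not differ at any of the 9 sites (adjusted p = 1 in each pair of inputs, exact binomial test), and over all sites 0.0103% (Activin and DMSO), 0.0207% (SB and DMSO) and 0.062% (Activin and SB) were called between inputs. When each ChIP was first divided by its own input, which has few tags at a site, both distal sites kept their direction but none of the 9 was called by a normal test on the log ratio of the 4 tag numbers. The Activin to SB log2 ratios were then 4.09 at Smad7 site 1 and 4.80 at Pmepa1 site 1, and of all sites 8 were called higher in Activin than SB.

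**Figure D1:**
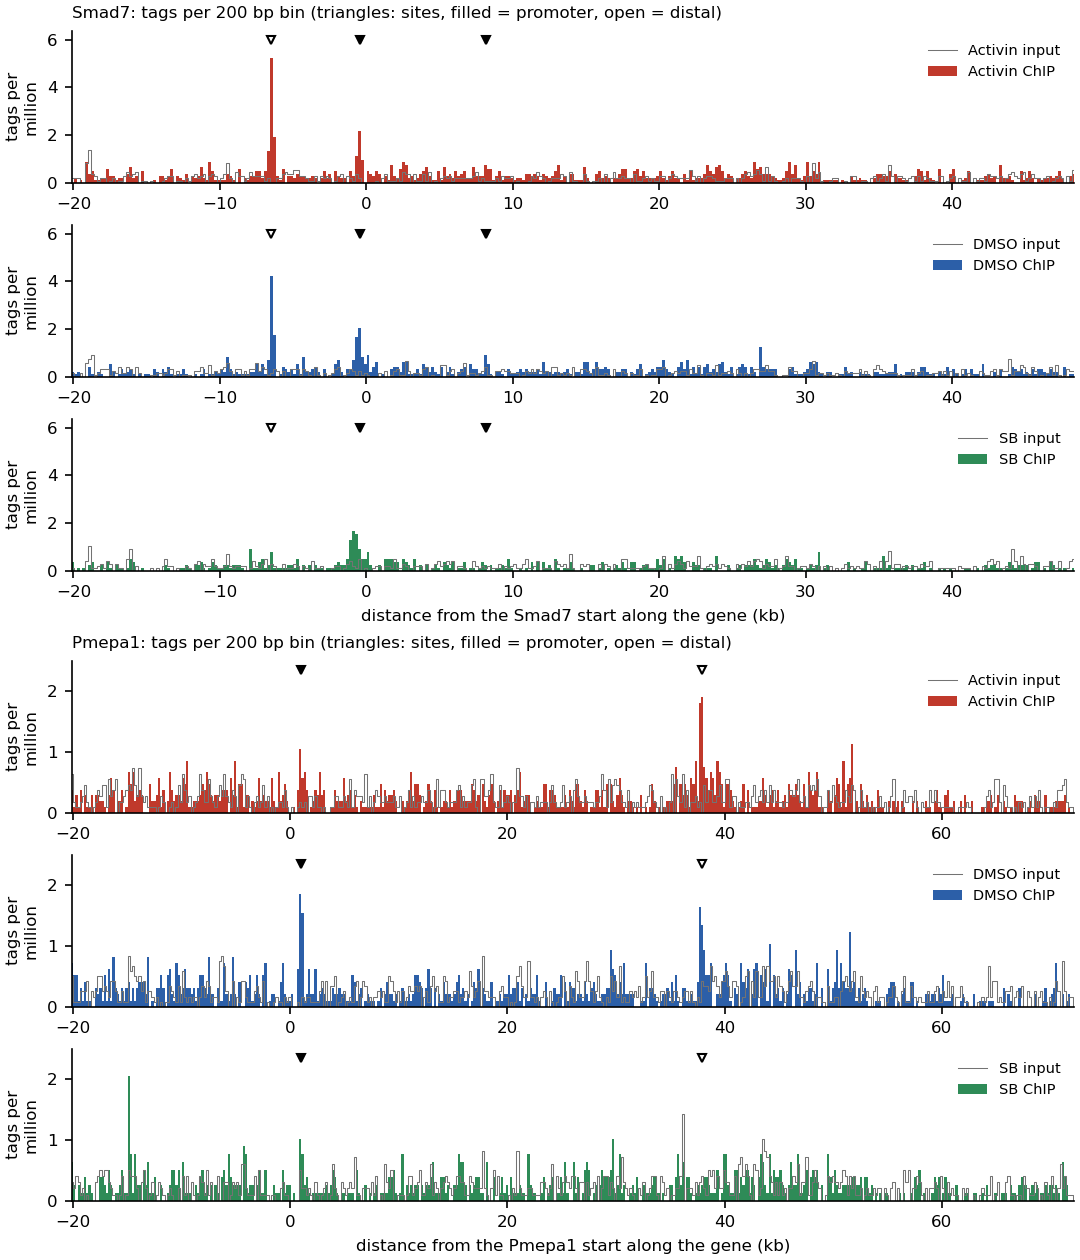
RPM in 200 bp bins along Smad7 (top) and Pmepa1 (bottom) against the distance from the gene start in kb, in the ChIP library of each treatment (bars) with its input (grey line). Open triangles mark distal and filled triangles promoter sites. The Smad7 peak at -6.47 kb and the Pmepa1 peak 37.9 kb inside the gene stand in Activin and DMSO and are missing in SB.

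In single bins, the highest of the 343 bins of the Smad7 window held 55 (Activin) and 41 (DMSO) tags and was the same bin, at -6.48 kb. In SB the highest bin held 13 tags and lay at -0.882 kb. Around Pmepa1 the highest bins were at 37.9 kb with 20 Activin tags, at 0.933 kb with 18 DMSO tags and at -14.9 kb with 16 SB tags. DMSO had 16 tags in a bin of the intronic site, so the place of its maximum rests on 2 tags. The SB bin is in no site, and the listed SB peak beside it, at -15.2 kb, held 23, 15 and 31 ChIP tags with 29, 35 and 20 in the inputs.

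The Smad7 site at the start differed little in its total. Smad7 site 2 (chr18:75526201-75527400) had 53 (Activin), 65 (DMSO) and 46 (SB) tags, or 5.03, 6.69 and 5.89 RPM, against 7, 11 and 9 input tags. ChIP was 7.83, 7.25 and 6.41 times the input in Activin, DMSO and SB. All 3 libraries overlapped in their intervals, with an Activin to SB ratio of 0.853 (0.564 to 1.30, adjusted p = 0.84, exact binomial test) and an SB to DMSO ratio of 0.881 (0.590 to 1.30, adjusted p = 0.948, exact binomial test). This site is 68.8% GC, and the comparison depended on the scaling. Scaled for GC content, Activin was 1.88-fold above SB and just passed the threshold (adjusted p = 0.0495, exact binomial test), and SB was 0.517 of DMSO (adjusted p = 0.0608, exact binomial test).

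Inside this site the libraries did not peak at the same place. Coverage by tags extended to 200 bp, searched from -1500 to 500 bp around the start, was highest at -452 bp in Activin (32 tags), at -414 bp in DMSO (24 tags) and at -972 bp in SB (21 tags). At the Activin position DMSO had 22 tags and SB 10, so that Activin was 2.37-fold above SB in RPM (1.14 to 5.41). At the SB position Activin had 4 tags, DMSO 8 and SB 21, and SB was 3.27-fold above DMSO (1.39 to 8.53) with Activin at 0.141 of SB (0.0352 to 0.418). The inputs had 0, 5 and 2 tags there. The 500 bp around the Activin and SB positions were 64.2% and 63.4% GC, and DNA of this content outside sites gave an Activin to SB ratio of 0.65. Closer to the positions GC content was 57.5% (Activin) and 67.5% (SB). Windows from these steps of GC content gave 0.79 and 0.454 outside sites. The part of GC content in the shift was not tested. With all copies kept the SB position had 4, 13 and 29 tags. These positions were chosen for their height, so the ratios are descriptions.

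**Figure D2:**
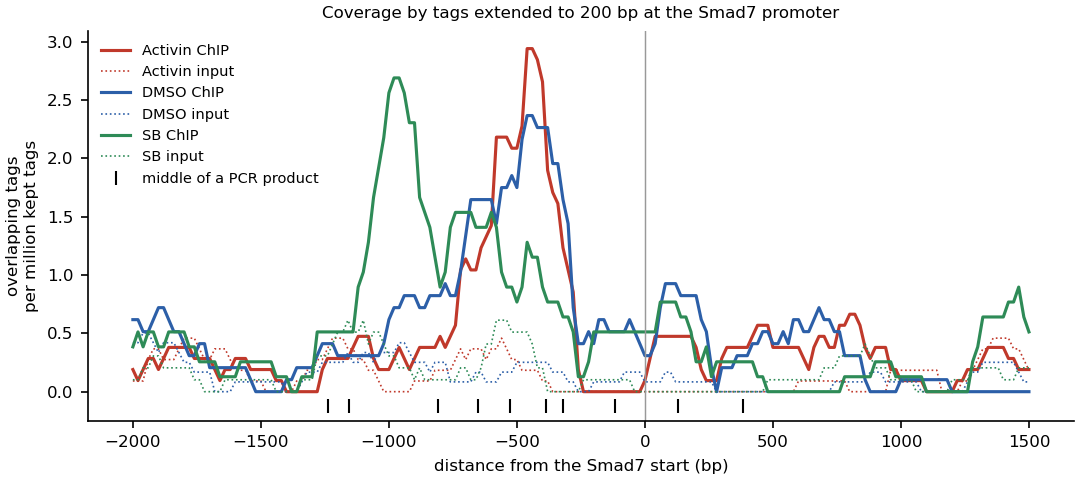
Tags overlapping each position near the Smad7 start in RPM against the distance from the start in bp, with tags extended to 200 bp (solid: ChIP, dotted: input, by treatment). Black ticks are the middles of the 10 PCR products. Activin is highest at -452 bp, DMSO at -414 bp and SB at -972 bp.

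Tags were also counted over the middles of the 10 PCR products that tile this promoter, each of which was located in the window, with middles from -1236 to 385 bp. The products at -528 and -387 bp had 23 and 21 Activin tags, 19 and 22 DMSO tags, and 7 and 6 SB tags. Activin was 2.43-fold (1.01 to 6.72) and 2.59-fold (1.01 to 7.85) above SB there. These neighbouring products share tags, because tags were extended to 200 bp. They flank the Activin maximum, and no interval was adjusted for the 10 products. The product at -808 bp turned the other way, with 5, 9 and 9 tags (Activin to SB 0.411, interval 0.108 to 1.37), and the one at -651 bp had 13, 17 and 11 (0.875, 0.362 to 2.16). The remaining 6 products had between 0 and 16 tags in each ChIP library. No product lay at the SB maximum. By PCR of ChIP DNA across this promoter the study reported pSmad2 binding as invariant between treatments. PCR and tag counts are different measures.

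The Pmepa1 promoter site was highest in DMSO. Pmepa1 site 2 (chr2:173100801-173101200) held 17 (Activin), 33 (DMSO) and 14 (SB) tags, with 3, 2 and 7 input tags. These ChIP levels are 1.61, 3.40 and 1.79 RPM, so both Activin and SB lay below DMSO. Activin was 0.475 of DMSO (0.248 to 0.877, p = 0.0153 by the exact binomial test, adjusted p = 0.364). With all copies kept this passed (adjusted p = 0.0286, exact binomial test, log2 ratio -1.26). SB was 0.528 of DMSO (0.261 to 1.01), and Activin to SB was 0.899 (0.417 to 1.97).

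The contrast between the distal and the promoter site of a gene was tested within the same libraries, which cancels any scaling that acts on all of a library alike. The authors had already reported an unchanging proximal Smad7 site, by PCR of ChIP DNA and from these libraries. The graded distal Smad7 site they reported came from these libraries. Their study also reported graded intronic binding at Pmepa1, shown by PCR of ChIP DNA. The contrast was taken with these results known, so its p-values describe a pattern seen before in the same data. For Smad7 the Activin to SB ratio was 8.49 times larger at site 1 than at site 2 (3.73 to 21.4, adjusted p = 1.85e-05, Fisher's exact test adjusted over 4856 pairs of sites). For Pmepa1 it was 10.3 times larger at site 1 than at site 2 (2.45 to 63.3, adjusted p = 0.0350, Fisher's exact test), but with tags extended to 120 bp it was not called (adjusted p = 0.106). Of all pairs, 0.556% were called in this direction. The third pair, at Smurf2, went to neither side (0.634, 0.117 to 3.17). GC content differs between the sites of a pair, with 47.5% against 68.8% at Smad7 and 60.3% against 58.8% at Pmepa1. Tested against the ratio that GC content alone gives, an alternative added after the values were seen, the ratio was 4.05 at Smad7 and 11.7 at Pmepa1 and both calls were lost (adjusted p = 0.105 and 0.0706, exact test on the noncentral hypergeometric distribution), with 4 of all pairs called.

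**Figure D3:**
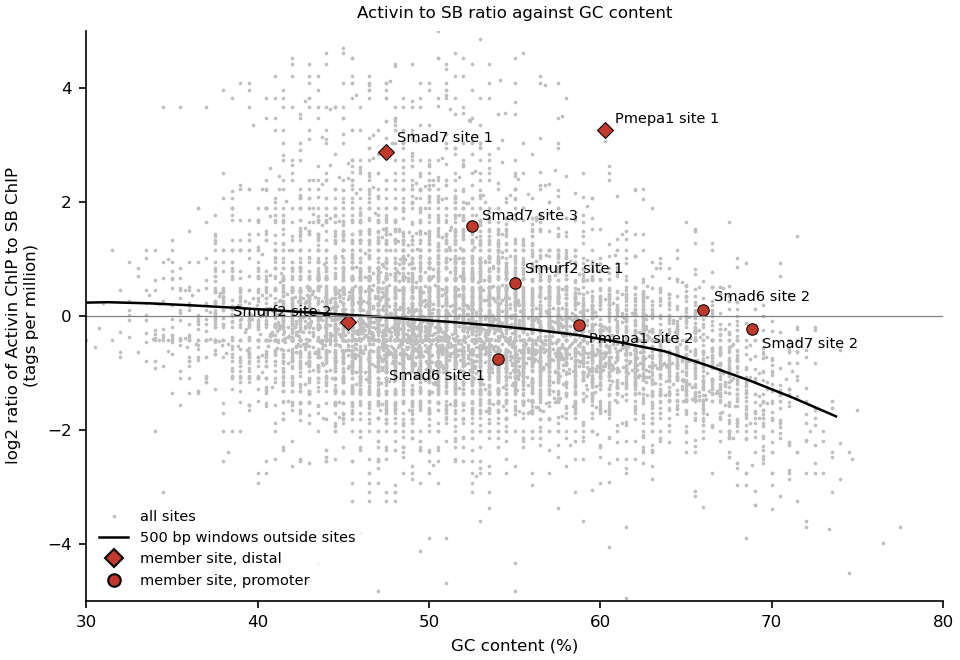
Log2 ratio of Activin ChIP to SB ChIP against GC content in percent, for all sites (grey) and the 9 member sites (diamonds: distal, circles: promoter). The black line is the ratio in 500 bp windows outside sites. Smad7 site 1 and Pmepa1 site 1 lie far above the line, and Smad7 site 2, at 68.8% GC, lies near 0 where the line is below 0.

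Of the 9 sites 1 was graded, that is, higher by at least 25% at each step from SB to DMSO to Activin (6.82% of all sites). It was Smad7 site 1, with a step of 1.26 from DMSO to Activin, and Pmepa1 site 1 fell just outside with 1.24. When scaled for GC content the 2 changed places. At 1.5-fold neither was graded. Smurf2 site 2 was the 1 flat site, with each pair of treatments within this limit (8.55% of all sites), and at 1.5-fold Smad7 site 2 and Smad6 site 2 joined it. None was graded in the inverse direction (9.18% of all sites). Among all 2641 sites within 1 kb of a coding start the median Activin to SB ratio was 0.691, and among the other 7044 it was 0.905. These medians are not scaled for GC content. Over all sites that scaling moved the median log2 ratio from -0.27 to -0.092.

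**Figure D4:**
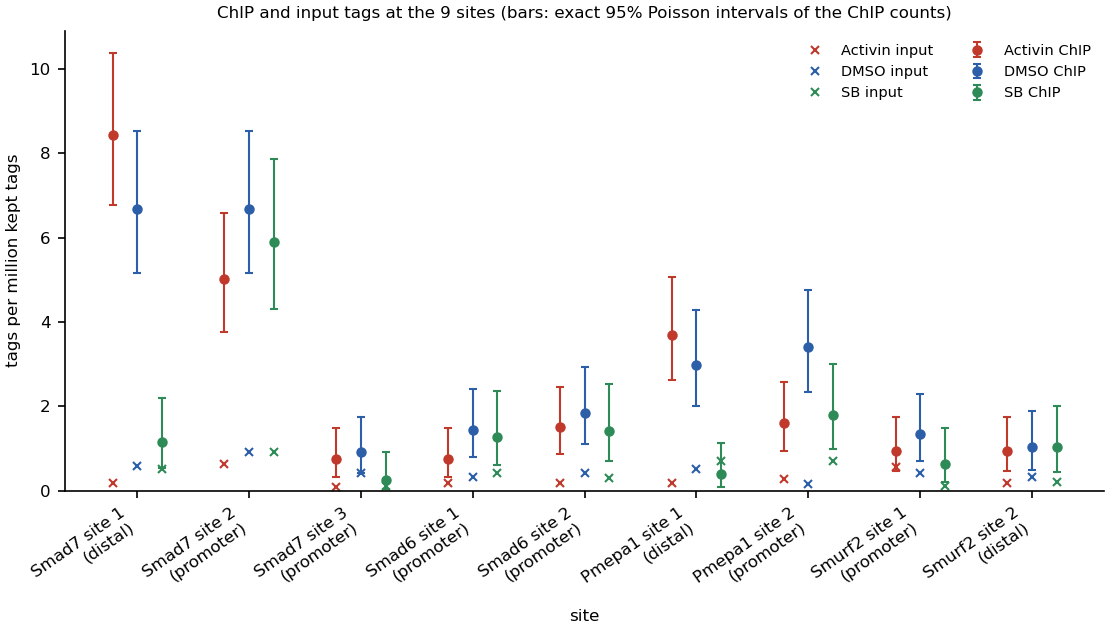
RPM at the 9 sites in each ChIP library (points with exact 95% Poisson intervals) and input library (crosses). SB falls to near input level at Smad7 site 1 and Pmepa1 site 1, and the intervals of the 3 treatments overlap at the other sites.

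Smad6, the inhibitory Smad of the BMP branch, had weak sites without a call. At the gene start, Smad6 site 2 (chr9:63869601-63870000) held 16 (Activin), 18 (DMSO) and 11 (SB) tags with 2, 5 and 3 in the inputs. The Activin to SB ratio was 1.08 (0.470 to 2.57). Scaled for GC content, 66.0% at this site, it was 1.97 and SB was 0.490 of DMSO, neither called (adjusted p = 0.486 and 0.563, exact binomial test). Smad6 site 1 inside the gene (chr9:63865601-63865800) had 8, 14 and 10 tags against 2, 4 and 4 (Activin to SB 0.593, 0.203 to 1.67). Over the wider region of the listed Activin peak there the tags were 39, 23 and 18, and with regions taken from the peak lists, which differ in place and width, the Activin comparisons had the other direction, with log2 ratios of 0.50 to DMSO and 0.64 to SB.

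Smurf2 had low sites without a call. Smurf2 site 1, near the start (chr11:106781001-106781200), had 10, 13 and 5 tags, in the same order, with 6, 5 and 1 in the inputs. Smurf2 site 2, in the untranslated region at the 3′ end (chr11:106681601-106682000), had 10, 10 and 8 tags with 2, 4 and 2 in the inputs. Their Activin to SB ratios were 1.48 (0.461 to 5.52) and 0.926 (0.329 to 2.70). At site 1 SB was 0.479 of DMSO (0.134 to 1.43), so these tags leave a wide range of differences possible. Smad7 site 3 inside the gene (chr18:75535201-75535400) had 8, 9 and 2 tags with 1, 5 and 1 in the inputs, and 2.96-fold more in Activin than SB was within counting error (0.591 to 28.6). At Smurf1 the highest of 648 bins reached 10 (Activin), 9 (DMSO) and 9 (SB) tags, each at another place, and the inputs reached 10, 8 and 10.

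In windows of 500 bp on each side of the annotated gene start, Smad7 was above input in all 3 treatments and Smad6 in SB. The Smad7 window had 37, 40 and 19 ChIP tags in Activin, DMSO and SB against 1, 6 and 3 input tags (adjusted p = 5.58e-08, 1.33e-06 and 0.00441, one-sided exact binomial test). Smad6 had 26, 30 and 23 against 9, 15 and 7 (adjusted p = 0.154, 0.128 and 0.0183, one-sided exact binomial test). Pmepa1, Smurf1 and Smurf2 had 5 to 11 ChIP tags in each library and were not called, the Pmepa1 site lying beyond this window. Of all 22350 start windows 0.819% were above input under Activin, 1.37% under DMSO and 2.58% under SB. With 1000 bp on each side Smad6 was also called in Activin, and Smad6 and Pmepa1 in DMSO. Between treatments none of the 5 windows was called, against 0.0127% (Activin and DMSO), 0.65% (SB and DMSO) and 7.59% (Activin and SB) of all windows with at least 10 tags, with no unadjusted p under 0.05 among the members, except that Smad7 passed between Activin and SB when scaled for GC content.

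The deposited lists of 5094 (Activin), 7423 (DMSO) and 4759 (SB) peaks held 28 peaks in the 5 windows. By list these were 12, 10 and 6, to be read against the unequal list sizes. Of the 28 peaks, 19 had a listed position within 500 bp of a site. The upstream Smad7 site had 114 tags and rank 261 of 5094 in the Activin list, 65 tags and rank 530 of 7423 in the DMSO list, and no SB entry. The Pmepa1 intronic site had 116 tags (rank 255) and 59 tags (rank 634) in the same lists and again no SB entry. The Smad7 start was in all 3 lists (48, 67 and 63 tags), as was the Pmepa1 promoter (31, 39 and 19). Smad6 site 1 was listed with 71 tags in Activin and 17 in DMSO. The Smad6 start was listed with 37 tags in Activin and 20 in DMSO. An SB entry of 35 tags had its position at -0.981 kb, beyond 500 bp of the site there. Smurf1 had 3 entries, none at a site, and Smurf2 had 5. Listed numbers cover peaks of unequal width in each list and are given side by side only.

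Away from the sites the Smad7 locus as a whole differed between treatments. The tags at least 1 kb from any site were counted in the 5 windows and in those of all coding genes, a comparison added after the values were seen. In the 59 kb so counted around Smad7 the ChIP tags numbered 816 (Activin), 603 (DMSO) and 383 (SB), or 1.31, 1.05 and 0.832 RPM per kb, while the inputs had 0.961, 0.969 and 0.956. The ChIP levels stepped down with the signal and the inputs were level. The 59 kb included listed Activin peaks at 24.0 and 28.9 kb from the start, which lay at no site. Their regions held 28, 17 and 6 and 28, 8 and 15 ChIP tags in Activin, DMSO and SB. Activin was 1.58-fold above SB (1.40 to 1.79, adjusted p = 1.59e-10, exact binomial test adjusted over 22350 windows) and 1.247-fold above DMSO (1.12 to 1.39, adjusted p = 0.0191), and SB was 0.790 of DMSO (0.694 to 0.900, adjusted p = 0.0113). The shares of all windows called the same way were 1.74%, 0.107% and 1.19%. Scaled for GC content the 3 ratios were 1.73, 1.23 and 0.708 and all stayed called. Over all windows this scaling left 53 higher in Activin than SB, 19 higher in Activin than DMSO and 10 lower in SB than DMSO, against 388, 24 and 265 without it. The Activin to SB ratio of the inputs was 1.01 (0.895 to 1.13).

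The difference was spread along the locus. Activin to SB was 1.68 (1.28 to 2.22) in the 20 kb upstream, 1.55 (1.31 to 1.85) in the gene and 1.58 (1.248 to 2.01) in the 20 kb downstream, and 99.0% of all gene windows had a lower ratio than that of Smad7. The other 4 windows showed nothing of the kind. Pmepa1 had 1002, 973 and 754 tags (Activin to SB 0.984, 0.895 to 1.08) and Smurf2 had 760, 774 and 581 (0.969, 0.869 to 1.08). Smad6, with 764, 757 and 684 tags, was lower in Activin than SB (0.827, 0.745 to 0.919, adjusted p = 0.00699, exact binomial test), as was Smurf1, with 1045, 985 and 885 (0.875, 0.799 to 0.958, adjusted p = 0.0353, exact binomial test), where 9.91% of all windows were called. Neither was called when scaled for GC content (adjusted p = 0.453 and 0.674, exact binomial test), which reduced the windows lower in Activin than SB from 2214 to 89.

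**Figure D5:**
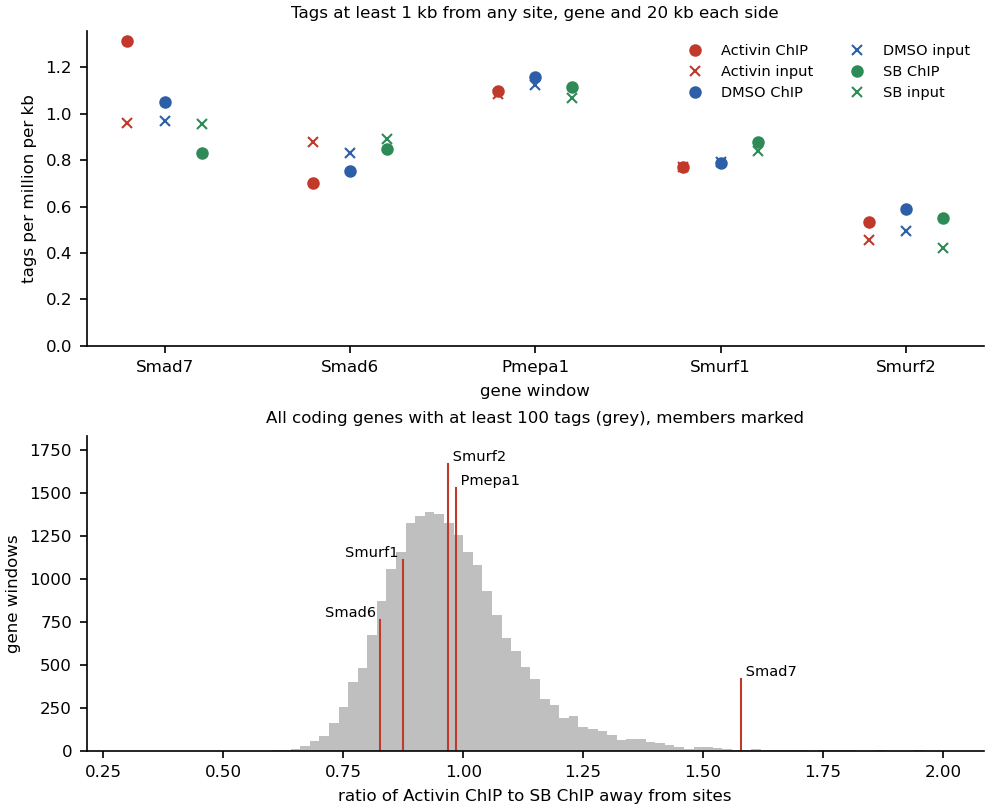
Top, RPM per kb at least 1 kb from any site in the window of each gene, in ChIP (points) and input (crosses) libraries. Bottom, number of gene windows (all coding genes with at least 100 tags) by the ratio of Activin to SB ChIP tags away from sites, with the 5 members as lines, whose heights carry no value. Smad7, at 1.58, lies at the right edge, and its inputs are level.

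Other genes of the pathway give the setting, from lists made with results of these data known. Among 10 other feedback inhibitors, 8 had a site, 4 had a site higher in Activin than SB, and 0 had one lower. Lefty1 had 4 such sites and Lefty2 1 (both are secreted antagonists of Nodal), Ski had 2 and Tgif1 1 (both are nuclear repressors of Smads). Of 16 ligands, receptors and Smads, 7 had a site and 2 had one higher in Activin, the ligand Nodal and its co-receptor Tdgf1. Of 12 ubiquitin ligases and partners of Smads, 7 had a site and 0 had a call in any direction. Over all coding genes 33.4% had a site, 0.926% had a site higher in Activin than SB and 3.52% a site lower. The median log2 ratio of Activin to SB over the sites of the 3 lists was 0.69, 0.47 and -0.16, against -0.27 over all sites. These medians are over sites, and a few genes supplied many of them. Tgif1 had 10 and Ski 8 of the 34 sites of the first list. Tdgf1 had 9 and Nodal 8 of 22 in the second, and Nedd4 had 18 of 28 in the third.

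Finally, the genes whose highest promoter and highest distal site were most like those of Smad7 in the 3 ChIP libraries were sought among 558 genes with enough tags at both. The measure was the root mean square difference of the 6 log2 values. The nearest were Samd1 (0.80), Fgf4 (0.87), Pou5f1 (0.88), Tex14 (0.91) and Cbx5 (0.92). At 2 of these the distal site was called higher in Activin than SB. It had 6.26, 2.06 and 1.54 RPM in Activin, DMSO and SB at Samd1, where DMSO lay near SB, and 3.80, 3.09 and 0.897 at Pou5f1, the pluripotency factor Oct4, where DMSO lay near Activin as at Smad7. The distal sites of Fgf4, Tex14 and Cbx5 were not called.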

How the data were processed

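The authors deposited aligned tags of 3 ChIP and 3 input libraries (mm9) and 3 peak lists with a count of tags per peak, called with MACS by their account. The sources used here do not name the aligner. The members and gene lists were chosen with earlier results of these data known.

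Tags at the same position and strand were kept once, extended to 200 bp and counted by their middles. Sites were runs of 200 bp bins in which the pooled ChIP tags exceeded the pooled inputs at p of 1e-05. Libraries were compared by two-sided exact binomial tests on library totals, ChIP with input by one-sided tests, and pairs of sites by Fisher's exact test, adjusted by Benjamini-Hochberg over all sites, windows or pairs, at 0.05. Ratios have 95% Clopper-Pearson intervals. GC scaling used 500 bp windows in steps of 2.5 points. Named were all member sites, the listed peaks, the PCR products of the Smad7 promoter and the 5 genes nearest to Smad7. Annotation was GENCODE vM1. Python 3.11.15 and SciPy 1.17.1 were used. The tests were tried on simulated Poisson counts, which held no GC difference between libraries and no spread between cultures. Microarray, PCR and luciferase values were not analysed here.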

Additional observations from a re-analysis of the deposited data

How the results depend on the processing

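Over 12 alternatives, 232 of 273 recomputed log2 ratios kept their direction and side of the threshold, and 29 changed sign, none of a site called with library totals. Of 88 recomputed counts 74 stayed the same or nearly so, and 14 moved. Those 74 include the sites higher in Activin than SB, which rose from 2 of 9 to 3 of 9 with GC scaling. With regions from the peak lists they were 3 of 17. The 74 also include the graded count under GC scaling, where another site was graded. The calls at Smad7 site 1 and Pmepa1 site 1 ended only when ChIP was divided by input, where 0 sites were higher in Activin than SB and 0 lower in SB than DMSO, and Pmepa1 site 1 also in SB against DMSO at an adjusted p of 0.001, leaving 1. No paired analysis was possible because each group has 1 library, and leaving out a library was not possible for the same reason.

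With all tags kept, 1 site was lower in Activin than DMSO, 0 were flat, Smad6 site 2 turned to a log2 ratio of 0.041 (Activin to DMSO) and Smurf2 site 2 to 0.21 (Activin to SB). With GC scaling, 0 pairs of a distal and a promoter site were called, 1 start window was called between Activin and SB, and Activin to SB turned to 0.91 at Smad7 site 2, 0.19 at Pmepa1 site 2 and 0.15 in the Pmepa1 window away from sites. With tags extended to 120 bp, 1 pair was called, Smad6 site 1 turned to 0.19 (SB to DMSO), Smad6 site 2 to -0.018 and Pmepa1 site 2 to 0.28 (Activin to SB). With bins at p of 1e-08, Smad7 site 2 turned to 0.54 (Activin to SB). At an adjusted p of 0.001, 1 pair and 0 start windows in SB were called. With 1000 bp windows, 2 starts in Activin and 3 in DMSO were above input. At 1.5-fold, 0 sites were graded and 3 flat.

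With regions from the peak lists, Activin to DMSO turned to 0.64 at Smad7 site 3, 0.50 at Smad6 site 1 and 0.71 at Smurf2 site 2, SB to DMSO to 0.087 at Smad6 site 2 and 0.79 at Smurf2 site 2, and Activin to SB to 0.082 at Smad7 site 2, 0.64 at Smad6 site 1, -0.35 at Smad6 site 2 and 0.22 at Pmepa1 site 2. Divided by input, Activin to DMSO turned to 0.078 at Smad7 site 2, 1.47 at Smad7 site 3, 0.73 at Smad6 site 2 and 0.60 at Smurf2 site 2, SB to DMSO to 0.61 and 0.58 at Smurf2 sites 1 and 2, and Activin to SB to 0.27 at Smad7 site 2, 0.26 at Smad6 site 1, 1.09 at Pmepa1 site 2, -1.46 at Smurf2 site 1 and 0.027 at Smurf2 site 2. The cause of these turns was not tested. Few tags limit the weak sites.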
